A study of Mus musculus with 8 samples.

Results

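The 41 genes described here carry DNA replication and cell division: enzymes of deoxynucleotide supply, the helicase and polymerase subunits that copy the genome, the cyclins and kinases that start S phase, the mitotic machinery, and the D cyclins and kinase inhibitors that gate the cycle. They were chosen by name, each as the row of the deposited gene table with that symbol, and all 41 had a row among the 15452 rows with a gene name. RNA had been sequenced from bEnd.3 cells, a mouse brain endothelial line immortalised with the polyomavirus middle T antigen, so every culture came from a line that divides without Norrin. One group of 4 cultures received recombinant Norrin, a secreted ligand of Frizzled-4, at 200 ng/ml for 24 h from 24 h after seeding. The other 4 cultures received vehicle, PBS with 0.1% BSA per the series text, although a treatment tag calls them untreated. The labels call the 4 cultures of each group biological replicates and name no allele, passage or batch, and the p-values rest on the spread among those cultures alone.

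Cells copy their DNA once per cycle. In G1, the origin recognition and licensing factors load the MCM helicase onto origins, and cyclin D and cyclin E kinases release E2F factors, which switch on genes for nucleotide supply and for the replication fork. Later, cyclin A and cyclin B with CDK1 drive entry into mitosis, Aurora and Polo kinases build the spindle, the BUB proteins hold anaphase until chromosomes attach, and CDC20 then triggers chromosome separation. Transcripts of the first set peak around S phase and those of the second in G2 and mitosis, so in a mixed culture their levels follow the share of cycling cells. In bulk RNA, fewer cycling cells and less RNA per cycling cell cannot be told apart. In mouse brain and retina, Norrin acts on endothelial growth and on barrier maturation through beta-catenin, and the comparison asks whether the replication and division genes of a dividing line differ after 24 h of the ligand.

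The cultures showed endothelial expression in both groups. All 12 endothelial markers examined matched a row, with summed levels of 7755 to 8041 CPM under Norrin and 8060 to 8331 CPM under vehicle (CPM, a gene's counts per 1000000 of the library's scaled total). These ranges did not overlap. By edgeR, 1 of the 12 rose, Esam, and 1 fell, Egfl7, against 2.17% called among all genes. At an unadjusted p under 0.05, 5 were lower and 1 higher, against 11.3% of all genes in either direction. All Norrin libraries lay below all vehicle libraries for 3, Pecam1, Kdr and Egfl7 (3.58% of all genes), and above for 1, Esam (3.43%). Of 39 markers of mural cells, fibroblasts, leukocytes, astrocytes, neurons, lymphatic endothelium and epithelium, 12 matched a row. Mural markers summed to 3.15 to 4.35 CPM under Norrin and 2.48 to 5.87 CPM under vehicle, and fibroblast markers to 4.10 to 5.76 CPM under Norrin and 3.35 to 9.02 CPM under vehicle. Leukocyte, astrocyte, neuron and epithelial lists had 1 row each, at no more than 1.33 CPM under Norrin and 3.03 CPM under vehicle. The lymphatic markers Lyve1 and Flt4 together gave 222 to 252 CPM under Norrin and 233 to 243 CPM under vehicle. What part the marker levels have in the results on the cell cycle genes was not tested. Total counts ran from 13445380 to 14905863 per Norrin library and from 12463942 to 15220576 per vehicle library.

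Promoters of S-phase genes are known for E2F sites and those of mitotic genes for the CHR and the NF-Y box, and these motifs were looked for in the members. RefSeq promoter windows on GRCm38.p6, with 250 bases before and 50 after the annotated start, were at hand for 33 of the 41 members, and the first window listed for each gene was searched on both strands. For 28 of the 33, a stretch of 20 bases after the start was found in a GENCODE transcript of the gene. All 33 were kept. The E2F motif was taken in the forms TTTCCCGC, TTTCGCGC, TTTGCCGC and TTTGGCGC, the cell cycle homology region (CHR) as TTTGAA or TTCGAA, and the NF-Y box as CCAAT. Matches may overlap each other, as E2F forms on opposite strands do. Of 9 licensing and fork genes with a window, 7 held an E2F motif, or 77.8%, against 2.32% of the 27025 genes in the table. Pcna and Mcm2 held none. Of 15 mitotic genes, 12 held a CHR (80.0%, against 19.4% of all genes), and 14 held a CCAAT box (93.3%, against 37.9%). The CCAAT box was in 7 of the 9 licensing and fork genes too (77.8%). Over all S-phase members with a window 7 of 15 held the E2F motif (46.7%) and 9 of 15 the CCAAT box. Of the 33 members, Tyms, Tk1, Ccne1, E2f1, Birc5, Ccnd3 and Cdkn1a held none of the 3 motifs. Ccnb1, Birc5 and Cenpe held no CHR, and Cdk1 was the 1 mitotic gene with an E2F motif. Of the 4 nucleotide supply genes, 0 held an E2F motif or a CHR. A match is only a run of letters in this window.

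**Figure D1:**
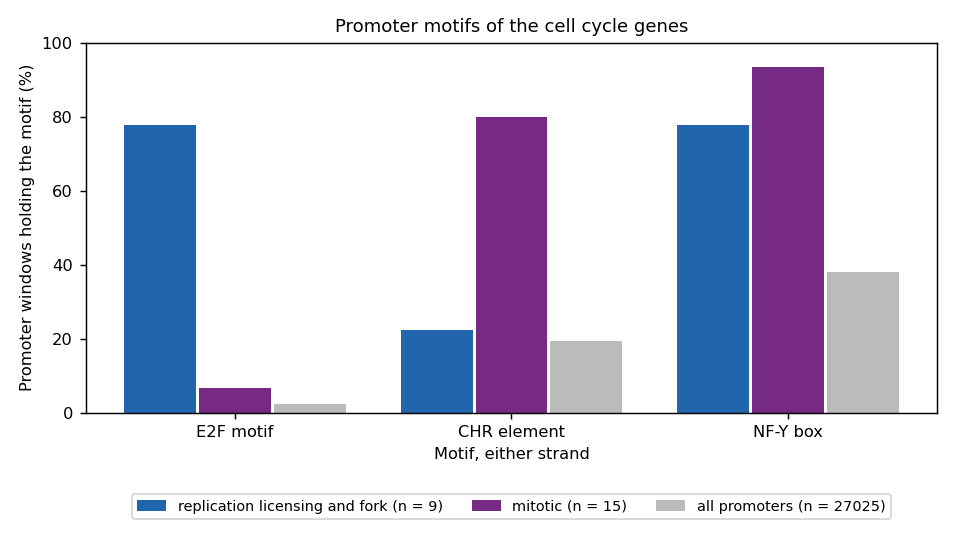
Share of promoter windows (y axis, percent) that hold each motif on either strand (x axis) for 9 replication licensing and fork genes, 15 mitotic genes and 27025 genes of the RefSeq table. The E2F motif is in 77.8% of the licensing and fork windows and 6.67% of the mitotic windows, while the CHR is in 22.2% and 80.0%.

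The 200 bases before the start are printed 5′ to 3′ for 5 members on the strand of the gene, with the matched motifs in capitals. Tyms (chr5:30073626-30073825, minus strand) is shown because it was the only member that passed the test for a change. Ccnb2 (chr9:70421555-70421754, minus strand) and Cdk1 (chr10:69352913-69353112, minus strand) are the first mitotic members listed that hold a CHR before the start. Mcm5 (chr8:75109309-75109508, plus strand) and Mcm6 (chr1:128359706-128359905, minus strand), chosen after the motif search, are the first licensing members listed with an E2F motif in the stretch.
Tyms: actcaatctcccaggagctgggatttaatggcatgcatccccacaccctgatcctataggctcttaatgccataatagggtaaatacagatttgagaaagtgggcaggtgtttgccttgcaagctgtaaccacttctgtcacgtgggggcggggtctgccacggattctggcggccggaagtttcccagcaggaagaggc
Ccnb2: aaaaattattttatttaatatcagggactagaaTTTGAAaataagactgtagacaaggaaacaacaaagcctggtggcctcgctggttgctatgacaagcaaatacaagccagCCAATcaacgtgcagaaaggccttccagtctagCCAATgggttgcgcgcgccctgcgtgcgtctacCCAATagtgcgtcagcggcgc
Cdk1: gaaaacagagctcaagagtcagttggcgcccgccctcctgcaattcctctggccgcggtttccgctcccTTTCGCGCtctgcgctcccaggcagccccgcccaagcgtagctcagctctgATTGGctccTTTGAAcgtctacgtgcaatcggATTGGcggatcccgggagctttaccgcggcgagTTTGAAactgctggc
Mcm5: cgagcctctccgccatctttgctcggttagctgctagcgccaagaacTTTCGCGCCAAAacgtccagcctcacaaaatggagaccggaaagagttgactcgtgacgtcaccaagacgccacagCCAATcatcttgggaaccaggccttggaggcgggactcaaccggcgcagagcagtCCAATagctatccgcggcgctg
Mcm6: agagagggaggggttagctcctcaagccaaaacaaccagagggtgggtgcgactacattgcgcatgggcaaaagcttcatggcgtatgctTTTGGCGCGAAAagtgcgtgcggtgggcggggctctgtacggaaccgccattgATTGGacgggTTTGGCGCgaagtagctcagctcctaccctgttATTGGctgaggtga
Capitals in Tyms would mark any of the 3 motifs and there are none. Ccnb2 has 3 CCAAT boxes in the forward direction, with first bases at −87, −54 and −21 from the start, and a CHR at −167. A second CHR lies at 5 to 10 after the start, outside the printed stretch. Cdk1 has CHR elements at −71 and −15, CCAAT boxes on the reverse strand at −80 and −48, and an E2F form at −131. In Mcm5 the capitals at −153 to −142 hold 2 overlapping E2F forms on opposite strands, with CCAAT boxes at −77 and −22. In Mcm6 the capitals at −110 to −99 hold 2 E2F forms that overlap on opposite strands, and a further form begins at −47.

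After 24 h of Norrin, thymidylate synthase was the only replication or division gene of the 41 that passed the test, and it rose. Of the 41 members, 1 rose, 0 fell and 40 did not pass (edgeR quasi-likelihood test, Benjamini-Hochberg adjusted p under 0.05 over 13666 genes), where 2.17% of all genes tested were called, 1.20% higher and 0.966% lower under Norrin. The median log2 fold change of the members was 0.00, as was that of all genes tested, and 21 members lay above 0 and 20 below. At an unadjusted p under 0.05, 4 members passed, against 11.3% of all genes. The libraries of the groups did not overlap for 3 members, against 7.01% of all genes. In 2 of these, Tyms and Ccne1, Norrin lay above (3.43% of all genes), and in 1, Aurka, below (3.58%). Summed over the 41 genes, the level was 5953, 5804, 5782 and 6161 CPM in the 4 Norrin libraries and 5910, 6100, 5981 and 5986 CPM in the 4 vehicle libraries. The Norrin sums include both the lowest and the highest of the 8 values.

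Each member had at least 92 counts in every library. Of the 40 members that did not pass, all 40 had a 95% interval inside a 1.5-fold change in either direction, and 28 had one inside a 1.2-fold change. The widest of the intervals by their outer limit belonged to Ccne1, up to 0.51 on the log2 scale, and to Cdc6, down to −0.37.

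**Figure D2:**
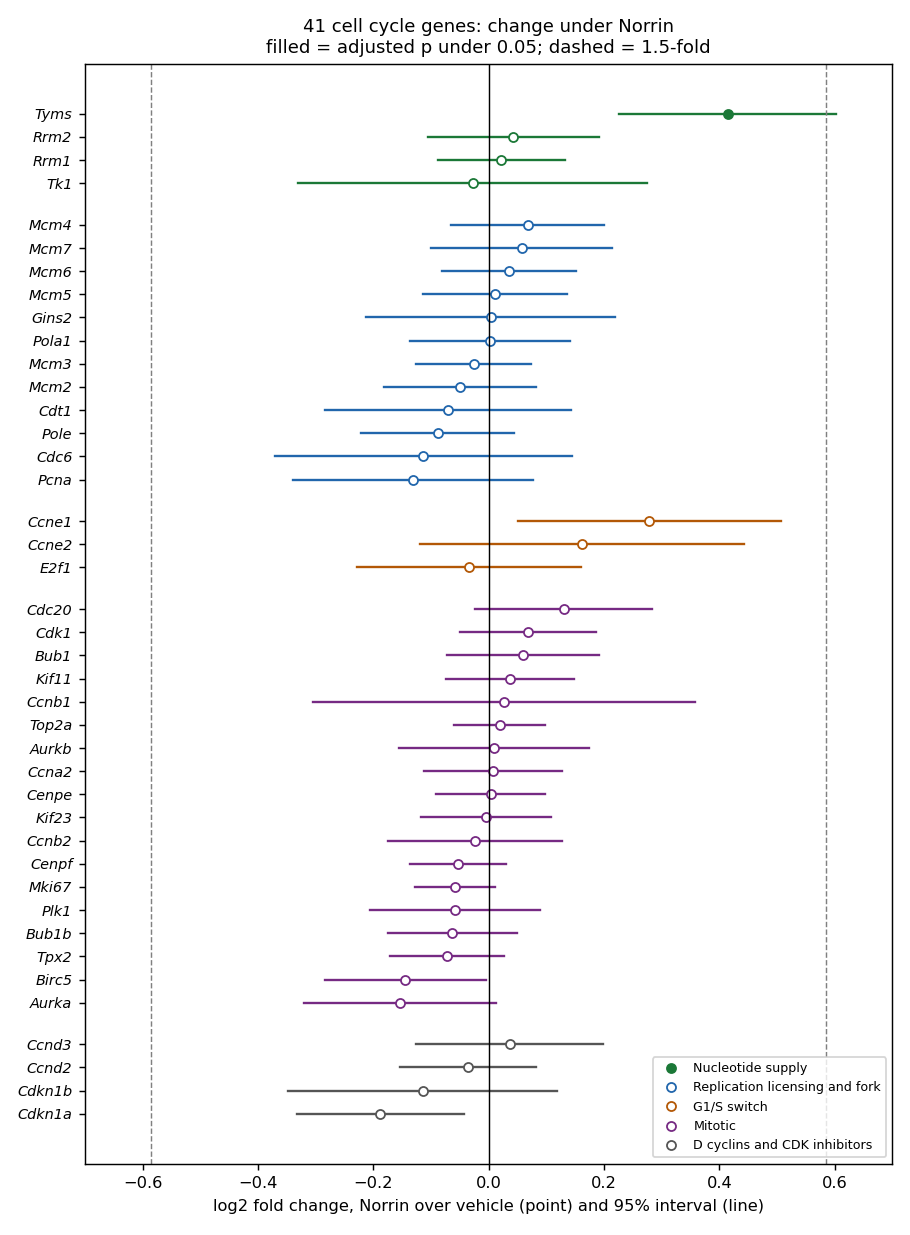
Log2 fold change of Norrin over vehicle (x axis, point) with its 95% interval (line) for the 41 genes, grouped by role and sorted within it, and dashed lines at 1.5-fold. Tyms is the filled point at 0.41, and the intervals of the 40 open points lie inside the dashed lines.

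Per length, the members were well expressed. The authors' deposited table gives 1 RPKM value per group (reads scaled to a length for each gene and to sequencing depth). The lengths used were not examined, and the order of genes by RPKM depends on them. Of the 41 members, 37 exceeded the median row in both groups, which was 10.9 under Norrin and 10.8 under vehicle. Birc5, which encodes survivin, a subunit of the chromosomal passenger complex, had the highest RPKM at 191 under Norrin and 212 under vehicle. The DNA topoisomerase gene Top2a followed at 166 RPKM under Norrin and 164 under vehicle. Ccnb1 was lowest, at 7.77 RPKM under Norrin and 7.57 under vehicle, below its paralogue Ccnb2 at 74.1 under Norrin and 75.3 under vehicle. By RPKM Tyms was low too, at 14.0 under Norrin and 10.5 under vehicle, with Rrm1 at 84.2 under Norrin and 83.3 under vehicle. At 53.5 CPM under Norrin and 40.1 CPM under vehicle, Tyms was nearer Rrm2 by counts than by RPKM. Rrm2 had 65.9 CPM and 55.8 RPKM under Norrin, and 63.9 CPM and 54.5 RPKM under vehicle. The folds in the authors' deposited table ran from 0.875 for Cdkn1a to 1.34 for Tyms over the members, with a median of 0.992.

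**Figure D3:**
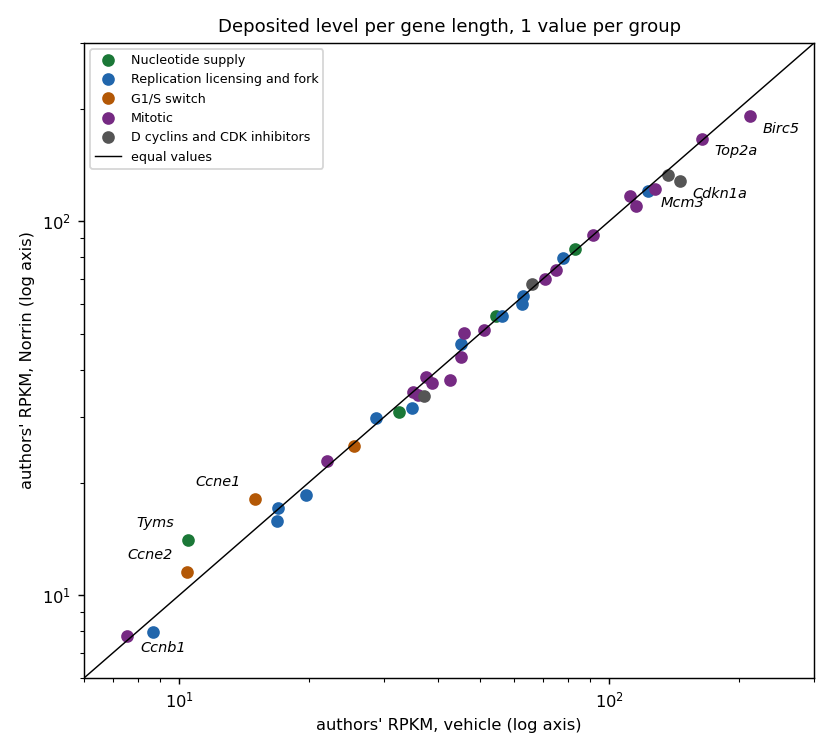
The authors' RPKM per gene under Norrin (y axis, log scale) against vehicle (x axis, log scale), 1 value per group and gene, coloured by role, with a line of equal values. The genes spread from 7.57 to 212 RPKM under vehicle and lie close to the line, with Tyms and Ccne1 above it.

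Deoxynucleotide supply held the 1 member called, and 1 of 41 is close to the 2.17% called among all genes. Tyms encodes thymidylate synthase, which makes dTMP from dUMP with a folate cofactor and is the only route of new thymidylate synthesis. Tyms had 56.1, 54.7, 52.8 and 50.2 CPM in the 4 Norrin libraries, against 31.9, 40.4, 42.5 and 45.6 CPM in the 4 vehicle libraries. Every Norrin library lay above every vehicle library, and vehicle replicate 1 was the lowest of the 8. Tyms rose 1.33-fold, to 53.5 ± 2.54 CPM under Norrin against 40.1 ± 5.88 CPM under vehicle (SD, n = 4 each; log2 0.41 ± 0.09 SE, edgeR adjusted p = 0.00842). Without vehicle replicate 1 the log2 fold change was 0.32 (edgeR adjusted p = 0.0448), and over all alternatives the adjusted p ran from 0.00209 to 0.0448. The mouse annotation has a pseudogene named after Tyms, and how reads shared with it were counted is not given in the sources used here.

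The other genes of nucleotide supply did not pass the test. Rrm1 and Rrm2 encode the large and the small subunit of ribonucleotide reductase, which turns ribonucleotides into deoxyribonucleotides. Rrm1 had 215, 187, 197 and 206 CPM in the 4 Norrin libraries, against 193, 214, 192 and 194 CPM in the 4 vehicle libraries (log2 0.02 ± 0.05, edgeR adjusted p = 0.937). Its groups overlapped, with the highest Norrin and vehicle libraries nearly level. Rrm2 had 69.2, 59.8, 63.1 and 71.4 CPM in the 4 Norrin libraries, against 61.0, 67.5, 63.1 and 64.0 CPM in the 4 vehicle libraries (log2 0.04 ± 0.07, edgeR adjusted p = 0.900). The salvage kinase gene Tk1, which makes dTMP from thymidine, had a log2 fold change of −0.03 ± 0.15 and the largest coefficient of variation among Norrin libraries of any member, with levels from 12.2 to 19.8 CPM. Of 29 further genes of thymidylate, folate and nucleotide synthesis, edgeR called 0, as did DESeq2 (0) and limma-voom (0), while 3 of 29 had an unadjusted p under 0.05 (11.3% of all genes), with a median log2 fold change of 0.02. The most abundant was Cad, which encodes the enzyme that starts pyrimidine synthesis. It had 140, 151, 147 and 175 CPM in the 4 Norrin libraries, against 168, 163, 158 and 186 CPM in the 4 vehicle libraries (log2 −0.14 ± 0.06, edgeR adjusted p = 0.398). Its groups overlapped. Without Norrin replicate 4 its log2 fold change was −0.21 and passed (edgeR adjusted p = 0.0466).

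For licensing and the fork, edgeR called 0 of 12 members (2.17% of all genes), and 0 had an unadjusted p under 0.05 (11.3% of all genes). DESeq2 called 0 and limma-voom 0. Of the 12, 6 lay above 0 and 6 below, and the median log2 fold change was −0.01. Pcna encodes the sliding clamp that holds polymerases on DNA. It had 24.6, 25.3, 23.1 and 26.7 CPM in the 4 Norrin libraries, against 28.6, 28.3, 27.4 and 24.9 CPM in the 4 vehicle libraries (log2 −0.13 ± 0.10, edgeR adjusted p = 0.725). Cdc6, which loads the helicase at origins, had 22.8, 19.6, 20.5 and 22.7 CPM in the 4 Norrin libraries, against 21.7, 27.5, 17.7 and 25.8 CPM in the 4 vehicle libraries (log2 −0.11 ± 0.13, edgeR adjusted p = 0.835). In both genes the groups overlapped, and in Cdc6 the vehicle libraries alone spanned the range of all 8. Mcm3, the subunit with the most reads, had 293, 289, 277 and 320 CPM in the 4 Norrin libraries, against 305, 311, 296 and 289 CPM in the 4 vehicle libraries (log2 −0.03 ± 0.05, edgeR adjusted p = 0.910). The remaining members of this role were Mcm2, Mcm4, Mcm5, Mcm6 and Mcm7, the licensing factor Cdt1, the helicase cofactor subunit Gins2, and the polymerase catalytic subunits Pola1 and Pole, with log2 fold changes between −0.09 and 0.07.

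The 6 helicase genes Mcm2 to Mcm7 differed in level among the Norrin libraries, with both extremes in that group. Their levels summed to 1023, 982, 923 and 1104 CPM in the 4 Norrin libraries and to 1024, 1003, 982 and 1013 CPM in the 4 vehicle libraries. Norrin replicate 4 held the highest and Norrin replicate 3 the lowest sum. By gene, Norrin replicate 4 was the highest of the 8 libraries for 4 of the 6 and Norrin replicate 3 the lowest for 5 of the 6, while over all genes tested these libraries were highest for 12.7% and lowest for 13.1%. Over the 12 licensing and fork genes, which include these 6, the counts were 6 and 7. Both libraries were picked by the sums of the helicase genes themselves, so these counts follow in part from that choice. The shares over all genes are for libraries not picked in this way, and cannot tell how unusual the counts are.

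**Figure D4:**
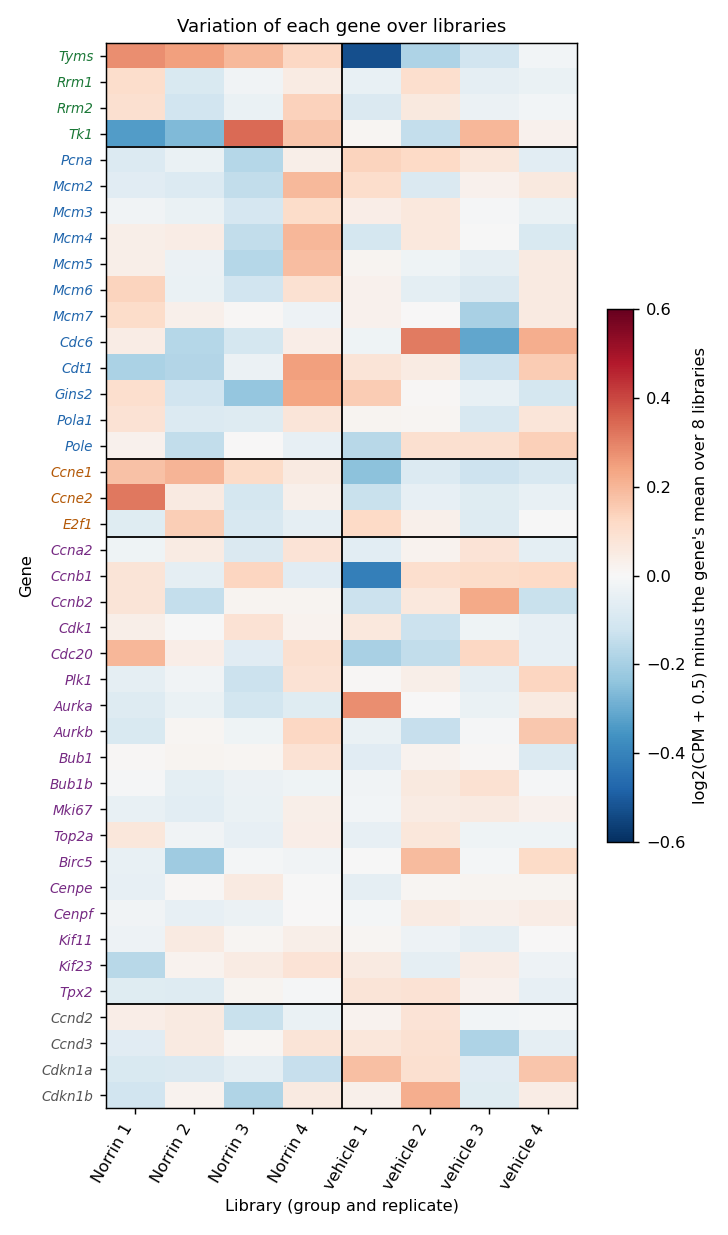
Log2(CPM + 0.5) of each of the 41 genes (rows, by role) in each library (columns, Norrin left of vehicle) minus the gene's mean over the 8 libraries. Mcm2, Mcm4 and Mcm5 are reddest in Norrin replicate 4 and bluest or nearly so in Norrin replicate 3, Tyms is red in all 4 Norrin libraries, and most mitotic rows are pale throughout.

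Of 45 further origin and fork genes, 1 rose and 44 did not pass by edgeR, close to the 2.17% called among all genes, and the median log2 fold change was 0.00. An unadjusted p under 0.05 was found for 4 of 45, with 2 higher and 2 lower, against 11.3% of all genes. Timeless encodes a fork protection protein that pairs with TIPIN. It had 113, 117, 110 and 110 CPM in the 4 Norrin libraries, against 107, 90.3, 89.0 and 97.6 CPM in the 4 vehicle libraries. Its groups did not overlap, and it rose 1.18-fold (log2 0.23 ± 0.06, edgeR adjusted p = 0.0375). The call was lost by limma-voom (adjusted p = 0.0658) and without Norrin replicate 1, 2 or 3 or vehicle replicate 2, 3 or 4 (edgeR adjusted p of 0.0729 to 0.179), with log2 fold changes from 0.20 to 0.29 over all alternatives. Exons of Timeless also share 111 bases with a long non-coding RNA gene on the opposite strand, and whether counting used strand is not given in the sources used here.

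Among genes of the G1/S switch, edgeR called 0 of 3 (DESeq2 0, limma-voom 0), against 2.17% of all genes. The unadjusted p was under 0.05 for 1 of 3, against 11.3% of all genes. Ccne1 encodes cyclin E1, which activates CDK2 at the start of S phase. It had 22.9, 23.3, 22.0 and 21.0 CPM in the 4 Norrin libraries, against 17.0, 19.1, 18.5 and 18.9 CPM in the 4 vehicle libraries. The Norrin libraries all lay above the vehicle libraries, with means of 22.3 ± 1.03 CPM under Norrin and 18.4 ± 0.948 CPM under vehicle (SD, n = 4 each). Its log2 fold change of 0.28 ± 0.11 did not pass (edgeR adjusted p = 0.279, 0.215 to 0.489 over all alternatives). Its paralogue Ccne2 had 16.7, 13.9, 12.4 and 13.7 CPM in the 4 Norrin libraries, against 12.1, 12.9, 12.7 and 12.9 CPM in the 4 vehicle libraries (log2 0.16 ± 0.14, edgeR adjusted p = 0.757). E2f1, the activator of the S-phase genes, had 30.3, 35.4, 29.8 and 30.6 CPM in the 4 Norrin libraries, against 34.7, 32.5, 30.2 and 31.8 CPM in the 4 vehicle libraries (log2 −0.03 ± 0.09, edgeR adjusted p = 0.944). For Ccne2 and E2f1 the groups overlapped. Of 28 further G1/S regulators, edgeR called 0 (DESeq2 0, limma-voom 0), and 1 when Norrin replicate 4 was left out. An unadjusted p under 0.05 was found for 3 of 28, all higher, against 11.3% of all genes in either direction (755 of 13666 higher). The median log2 fold change was 0.04. Ccnd1, the cyclin D1 gene and a textbook beta-catenin target, had the most reads of these. It had 447, 364, 369 and 463 CPM in the 4 Norrin libraries, against 401, 446, 391 and 432 CPM in the 4 vehicle libraries. The groups overlapped, with means of 411 ± 51.5 CPM under Norrin and 417 ± 25.9 CPM under vehicle (SD, n = 4 each; log2 −0.02 ± 0.09, edgeR adjusted p = 0.958). Exons of Ccnd1 share 1100 bases with the protein-coding gene LTO1 on the opposite strand, so its counts may include reads of that neighbour.

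**Figure D5:**
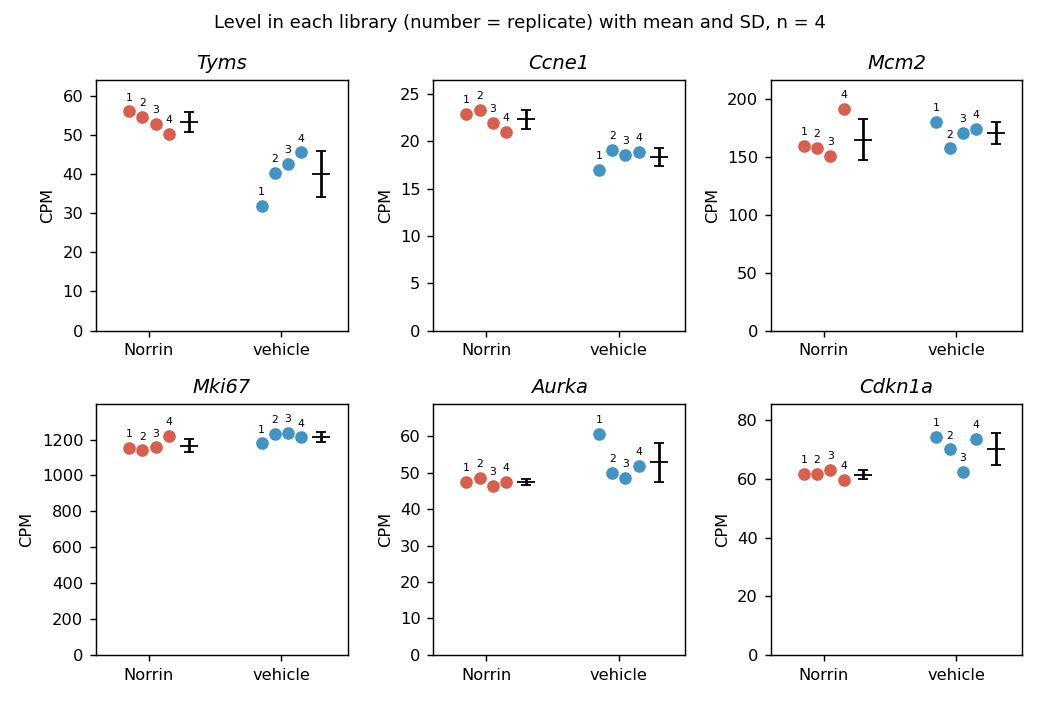
CPM (y axis, from 0) in each library for 6 genes, Norrin left of vehicle, with each point numbered by replicate and the mean and SD beside it (n = 4). The Norrin points of Tyms, at 50.2 to 56.1 CPM, lie above its vehicle points, at 31.9 to 45.6 CPM, while the points of Mki67, at 1140 to 1238 CPM over both groups, overlap.

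Of the 18 mitotic members, edgeR called 0 (DESeq2 0, limma-voom 0), against 2.17% of all genes. An unadjusted p under 0.05 was found for 1 of 18, against 11.3% of all genes. By direction, 9 lay above 0 and 9 below, and the median log2 fold change was 0.00. Mki67, whose protein Ki-67 coats mitotic chromosomes and is the usual stain for cycling cells, had 1153, 1140, 1157 and 1218 CPM in the 4 Norrin libraries, against 1178, 1234, 1238 and 1212 CPM in the 4 vehicle libraries. Norrin replicates 1, 2 and 3 were lower than all vehicle libraries and replicate 4 was within their range (log2 −0.06 ± 0.03, edgeR adjusted p = 0.562). Aurka, the kinase of spindle poles, had 47.4, 48.5, 46.3 and 47.4 CPM in the 4 Norrin libraries, against 60.7, 49.98, 48.5 and 51.9 CPM in the 4 vehicle libraries. The Norrin libraries all lay below the vehicle libraries, among which replicate 1 was the highest (log2 −0.15 ± 0.08, edgeR adjusted p = 0.502). Birc5 had 76.3, 67.9, 78.2 and 77.7 CPM in the 4 Norrin libraries, against 78.6, 89.8, 78.1 and 85.3 CPM in the 4 vehicle libraries, and its groups overlapped (log2 −0.14 ± 0.07, edgeR adjusted p = 0.409).

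The other 15 mitotic members had log2 fold changes from −0.07 to 0.13, the highest in Cdc20, the activator of the anaphase-promoting complex (0.13 ± 0.08, edgeR adjusted p = 0.560). The mitotic cyclin and kinase genes Ccna2, Ccnb1, Ccnb2 and Cdk1 were at 0.01 ± 0.06, 0.03 ± 0.16, −0.02 ± 0.07 and 0.07 ± 0.06. The spindle kinase genes Plk1 and Aurkb were at −0.06 ± 0.07 and 0.01 ± 0.08, and the checkpoint kinase genes Bub1 and Bub1b at 0.06 ± 0.06 and −0.06 ± 0.05. The abundant Top2a was at 0.02 ± 0.04. The kinetochore genes Cenpe and Cenpf were at 0.00 ± 0.05 and −0.05 ± 0.04, and the spindle motor and assembly genes Kif11, Kif23 and Tpx2 at 0.04 ± 0.05, −0.005 ± 0.06 and −0.07 ± 0.05. None of these passed the test.

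Of 65 further genes of mitosis and cytokinesis, 64 matched a row. Of these edgeR called 0, DESeq2 1 and limma-voom 0. An unadjusted p under 0.05 was found for 5 of 64, all lower, against 11.3% of all genes in either direction (793 of 13666 lower), and the median log2 fold change was −0.02. Ckap5, a microtubule polymerase gene and the most abundant of them, had 386, 356, 361 and 368 CPM in the 4 Norrin libraries, against 366, 361, 366 and 356 CPM in the 4 vehicle libraries (log2 0.02 ± 0.04, edgeR adjusted p = 0.917). Cdca3, a trigger of mitotic entry named here after its values were seen, had the lowest adjusted p of the list, at −0.23 ± 0.07 on the log2 scale (edgeR adjusted p = 0.0753). All Norrin libraries lay below all vehicle libraries for 5 of the 64 genes, Cdca3 among them (3.58% of all genes), and above for 0 (3.43%).

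S-phase and mitotic genes were also set apart by library. The 19 S-phase members, from the first 3 roles, had a median log2 fold change of 0.00 and summed to 1602 to 1825 CPM under Norrin and 1652 to 1717 CPM under vehicle. The 18 mitotic members had a median of 0.00 and summed to 3902 to 4085 CPM under Norrin and 3958 to 4108 CPM under vehicle. Taking the median deviation of the S-phase genes from each gene's own mean, the Norrin libraries ran from −0.09 (replicate 3) to 0.09 (replicate 4) on the log2 scale and the vehicle libraries from −0.06 to 0.02. For the mitotic genes the range was −0.03 to 0.03 under Norrin and −0.02 to 0.03 under vehicle. The 19 S-phase members spread more between Norrin libraries than the 18 mitotic members did, with no test of that difference. The further lists were mixed by the same measure. Under Norrin the 45 origin and fork genes ran from −0.03 to 0.03 and the 64 of mitosis and cytokinesis from −0.07 to 0.03. Nucleotide synthesis genes ran from −0.06 to 0.12 and G1/S regulators from −0.003 to 0.11. Over single members the coefficient of variation had a median of 6.20% under Norrin and 5.51% under vehicle.

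Of the D cyclins and CDK inhibitors, edgeR called 0 of 4 (DESeq2 0, limma-voom 0), against 2.17% of all genes. The unadjusted p was under 0.05 for 1 of 4, against 11.3% of all genes. Cdkn1a encodes p21, the p53-induced inhibitor of cyclin-dependent kinases. It had 61.6, 61.8, 63.1 and 59.5 CPM in the 4 Norrin libraries, against 74.4, 70.1, 62.5 and 73.6 CPM in the 4 vehicle libraries. Vehicle replicate 3 lay within the Norrin range and the other vehicle libraries above it (log2 −0.19 ± 0.07, edgeR adjusted p = 0.228). Cdkn1b, which encodes p27, had 19.5, 21.5, 18.6 and 22.0 CPM in the 4 Norrin libraries, against 21.6, 24.7, 20.1 and 21.9 CPM in the 4 vehicle libraries (log2 −0.11 ± 0.11, edgeR adjusted p = 0.810). Ccnd2, the cyclin D2 gene, had 121, 122, 107 and 114 CPM in the 4 Norrin libraries, against 119, 124, 116 and 116 CPM in the 4 vehicle libraries (log2 −0.04 ± 0.06, edgeR adjusted p = 0.892). For both, the groups overlapped, as they did for Ccnd3, the cyclin D3 gene (0.04 ± 0.08).

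Of 20 genes listed beside Cdkn1a as p53 targets, which include Trp53, the p53 gene itself, 18 matched a row. By edgeR, 1 rose, 1 fell and 16 did not pass (3 passed by DESeq2), against 2.17% called among all genes. An unadjusted p under 0.05 was found for 6 of 18, with 4 lower and 2 higher, against 11.3% of all genes. The median log2 fold change was −0.04. Plk2, a Polo-like kinase gene of centriole duplication, had 713, 708, 680 and 688 CPM in the 4 Norrin libraries, against 608, 590, 609 and 617 CPM in the 4 vehicle libraries. It rose 1.15-fold with no overlap between groups (log2 0.20 ± 0.04, edgeR adjusted p = 0.00111). Eda2r, a receptor gene of the tumour necrosis factor family, had 20.5, 22.4, 16.9 and 22.2 CPM in the 4 Norrin libraries, against 27.7, 27.3, 26.8 and 29.7 CPM in the 4 vehicle libraries. It fell by 0.44 on the log2 scale, again with no overlap (SE 0.11, edgeR adjusted p = 0.0248). That call was lost without Norrin replicate 1 or 3 or vehicle replicate 1, 2 or 4, where the edgeR adjusted p was 0.0525 to 0.137.

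For 11 members, exons overlap those of a gene on the opposite strand in the mouse GENCODE annotation, among them Gins2 with 2758 shared bases, Ccne2 with 609, Ccna2 with 510 and Tk1 with 83. Their counts may include reads of those neighbours. For 5 members, Tyms, Pcna, Ccnb1, Ccnb2 and Ccnd3, the annotation has pseudogenes of the same name, of which 0 had a row of their own.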

How the data were processed

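Per the labels' protocols, total RNA was depleted of ribosomal RNA and made into SMARTer Pico libraries, read as pairs on a NovaSeq. STAR is named in the submitters' processing notes, with no version. Build, annotation, counting tool and strand setting were not given in the sources used here. The deposited gene table holds the authors' estimated counts per library, the authors' RPKM as 1 value per group, and the authors' deposited ratio of the groups, given as a fold. Of 123616 count values, 763 were not whole, and these were rounded. One row without a gene name and with no counts was left out.

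The test was edgeR's robust quasi-likelihood test (edgeR 4.0.16, R 4.3.3) on all 8 libraries, after TMM scaling and a filter on low counts (filterByExpr, 13666 of 15452 genes kept, 1786 left out), with Benjamini-Hochberg adjustment over all genes and a threshold of 0.05. The standard error is the log2 fold change divided by the root of the F statistic. CPM is the count per 1000000 of the TMM-scaled total, and at the lowest and highest depth 3 counts equal 0.241 and 0.193 CPM. All 41 members passed the filter. The script was tested on simulated data with 50 genes changed at each of 4 folds. It recovered 30% of the 1.2-fold changes, 88% of the 1.5-fold, 94% of the 2-fold and 100% of the 4-fold. Of its 168 calls, 12 were false. Every pair of libraries within a group differed by more than counting noise.

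Values per library are given for members past the threshold, for the 2 members of each role with the largest absolute change and for the 1 with the highest CPM, and likewise for called genes of the other lists or the most abundant one. The members and lists were chosen with earlier results of these data known. Same-numbered libraries of the groups did not deviate together (correlations −0.026, 0.014, 0.041 and 0.092), so the numbers were not used as pairs. Alternatives were other size factors, no filter or a stricter one, DESeq2 1.42.0, limma-voom (limma 3.58.1), a replicate block, a threshold of 0.01 and leaving out each library. Promoters are from RefSeq, on GRCm38.p6, and overlaps of exons from GENCODE M21, which may not be the authors' annotation.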

Additional observations from a re-analysis of the deposited data

Results flagged for a closer look

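Dixon's criterion at 95% was applied to 108 groups of 4 libraries, over the members, the other genes given by library and sums of the members. By it, 5 members had a library set apart from the other 3 of its group, and chance alone sets about 1 in 20 groups apart. E2f1 was at 35.4 CPM in Norrin replicate 2, with the other Norrin libraries at 29.8 to 30.6 CPM. Bub1 was at 75.6 CPM in Norrin replicate 4, with the others at 71.5 to 72.1 CPM. Rrm1 was at 214 CPM in vehicle replicate 2, with the other vehicle libraries at 192 to 194 CPM. Ccnb1 was at 7.35 CPM in vehicle replicate 1, with the others at 10.7 to 10.8 CPM. Cenpe was at 250 CPM in vehicle replicate 1, with the others at 262 to 263 CPM. None of these 5 genes was called in any alternative.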

How the results depend on the processing

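The count of members called was 1 in all alternatives, and that member was Tyms, with log2 fold changes from 0.32 to 0.48. With a replicate block, which the pairing check above gives no ground for, Tyms was at 0.42 (edgeR adjusted p = 0.0107) and 402 genes of the whole table were called, against 296 without the block, with 295 shared. Of the 41 members, 16 changed the sign of their log2 fold change in at least 1 alternative, and none of the 16 was called in any. Over the whole table, 171 genes were called at a threshold of 0.01, 404 by DESeq2 and 243 by limma-voom, and leaving out 1 library gave 206 to 452, the highest without Norrin replicate 4, where 275 of the 296 were shared. Leaving out 1 library gave 0 to 1 called genes for nucleotide synthesis, for origin and fork and for G1/S regulators, and 1 to 2 for p53 targets. The origin and fork count was 0 at a threshold of 0.01 and by limma-voom, the count for mitosis and cytokinesis was 1 by DESeq2, and that for p53 targets was 1 at a threshold of 0.01. The cause was not tested. The smallest count of a member in a library was 92, and how far depth limits the intervals was not tested.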
